A study of Mus musculus with 6 samples.

Results

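The common gamma chain family was followed through 10 genes among the 55401 gene rows of RNA-seq counts from brain microglia of lupus-prone and control mice. The members are the shared receptor chain Il2rg, the private chains Il2ra, Il2rb, Il15ra, Il21r, Il4ra and Il7r, the related chains Il13ra1 and Crlf2, and the cytokine Il15. They were chosen by name, as the receptor chains and the ligand that work with or beside the common gamma chain. All 10 had counts, and all 10 passed the filter on low counts.

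The study asked how microglia differ between MRL/lpr mice, which carry the lpr mutation of the death receptor gene Fas on the MRL background and develop a lupus-like disease, and MRL/mpj mice, the parental strain without that mutation. There were 3 libraries of each strain, all from brains of untreated mice aged 6 weeks. The cells were taken from digested, perfused brain with magnetic beads against CD11b, a surface protein of microglia that other myeloid cells and some lymphocytes also carry. The paper describes the libraries of each strain as an equal number of mice. The labels do not tie a library to 1 animal or say whether animals were pooled, so the p-values measure the spread between these libraries, and part of that spread may be technical.

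The gamma chain, encoded by Il2rg, is a subunit of the receptors for IL-2, IL-4, IL-7, IL-9, IL-15 and IL-21. It cannot bind most of these cytokines well alone and pairs with a private chain for each, after which the kinases JAK1 and JAK3 on the chains phosphorylate STAT proteins. IL-4 can also signal through Il4ra paired with Il13ra1, and the cytokine TSLP through Il7r paired with Crlf2, in both cases without the gamma chain. The family is best known for lymphocyte survival and growth, while in macrophages and microglia IL-4 drives an alternative activation state.

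Total counts ran from 45481609 to 49846634 per library. Low counts piled up at multiples of 4: in each library 1138 to 1288 genes had 4 counts, against 320 to 415 with 3 and 211 to 261 with 5, so counts of this size stand for very few read pairs. MRL/lpr replicate 3 stood apart, since the single gene CT010467.1 took 6.38% of its counts and 0.169% to 0.458% elsewhere. Mitochondrial genes took 3.06% to 3.49% of counts in MRL/lpr and 5.84% to 6.38% in MRL/mpj. The study's methods describe female mice. Xist, the RNA of the inactive X chromosome, however, had 8886 to 11319 counts in MRL/lpr and 27 to 38 in MRL/mpj. The summed counts of 4 Y-linked genes were 8408 to 11783 in MRL/lpr and 13155 to 15046 in MRL/mpj. Y-linked RNA was present in every library. The strains thus differed in sex-linked RNA, and the labels give no sex. Strain, sex and whatever else lies behind these differences cannot be told apart. Fas had 461, 282 and 298 counts in MRL/lpr and 426, 432 and 362 in MRL/mpj, so its count does not separate the strains. The microglial markers were abundant in each library, with 99987 to 123195 counts of Tmem119 in MRL/lpr and 123896 to 132885 in MRL/mpj, and 25098 to 48368 counts of P2ry12 against 64731 to 69573. Levels of single genes are given as CPM, counts scaled to a common library size by TMM.

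Of the 10 genes, 5 were higher in MRL/lpr (Il2rb, Crlf2, Il4ra, Il2rg and Il15ra), 2 were lower (Il21r and Il7r), and 3 did not pass the test (Il2ra, Il15 and Il13ra1), at an adjusted p under 0.05 in edgeR (quasi-likelihood test, adjusted by Benjamini-Hochberg over all genes). Among the 19554 genes tested, 11.1% were higher and 9.06% lower by the same rule. With a log2 fold change of at least 1 added, 2 members were upregulated, Il2rb and Crlf2, against 4.67% of all genes. None reached a log2 fold change of -1 with an unadjusted or adjusted p under 0.05 by edgeR, DESeq2 or limma, and 3.66% of all genes were downregulated by edgeR. The median log2 fold change was 0.56 over the members and -0.01 over all genes tested. In 7 of the 10 the libraries of the strains did not overlap, which held for 39% of all genes. Without MRL/lpr replicate 3, the library with the high CT010467.1 share, the same 5 members were higher and the same 2 lower. Without MRL/lpr replicate 2, or without MRL/mpj replicate 1, 4 were higher and 2 lower.

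**Figure D1:**
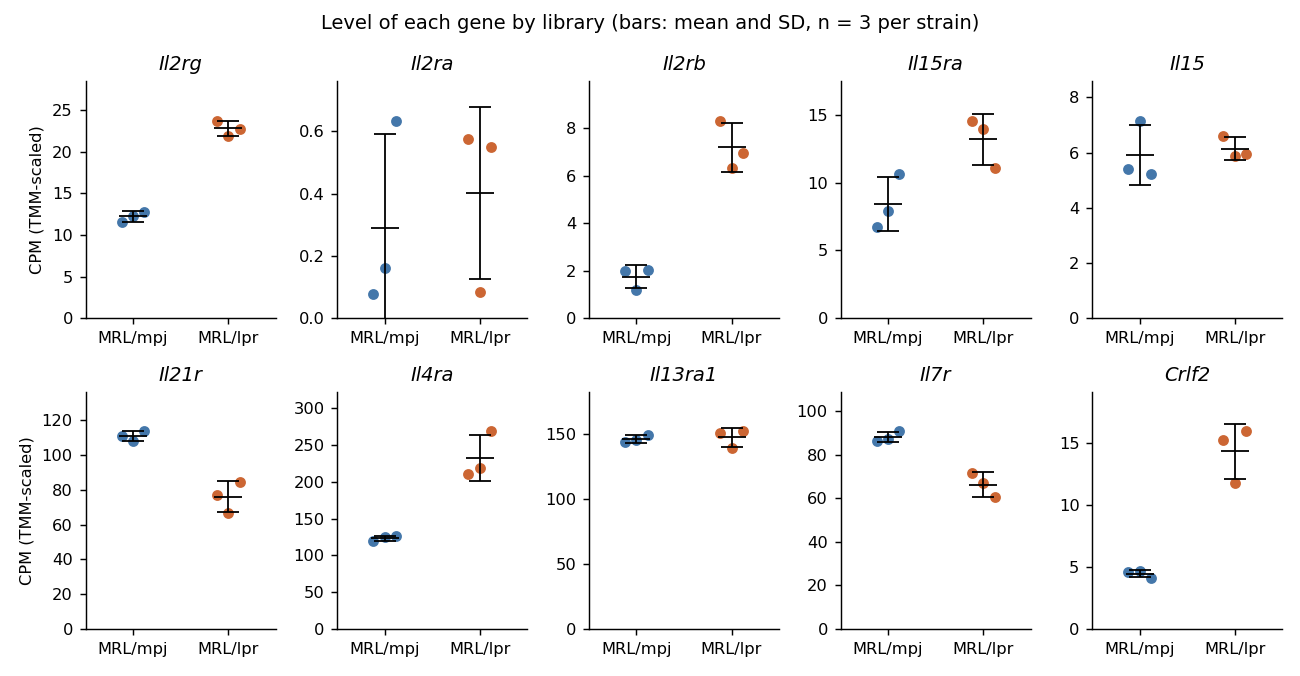
Level of each of the 10 genes by library, in CPM scaled by TMM on axes that start at 0; points are libraries and bars are the mean and SD of 3 libraries per strain. The MRL/lpr points lie above all MRL/mpj points for Il2rg, Il2rb, Il15ra, Il4ra and Crlf2, below them for Il21r and Il7r, and among them for Il2ra, Il15 and Il13ra1.

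**Figure D2:**
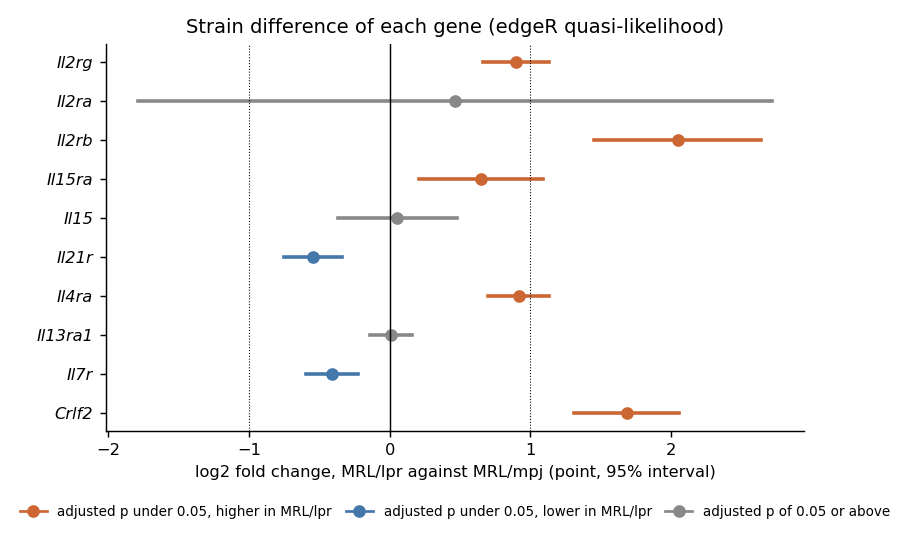
Log2 fold change of each gene, MRL/lpr against MRL/mpj, from edgeR, with points at the estimate and lines over the 95% interval; dotted lines mark -1 and 1. Il2rb (2.05) and Crlf2 (1.68) lie above 1, Il21r (-0.55) and Il7r (-0.41) lie below 0, and the interval of Il2ra is the widest.

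The shared chain Il2rg lies on chromosome X, 101264378 to 101268255 on the minus strand of GRCm38. The 3 MRL/lpr libraries held 1117, 1032 and 950 counts of it and the MRL/mpj libraries 594, 617 and 667. Every MRL/lpr library was above every MRL/mpj library. The mean level was 22.8 CPM ± 0.92 (SD, n = 3) against 12.2 ± 0.64, a log2 fold change of 0.90 (SE 0.11, 95% interval 0.66 to 1.14) with an edgeR adjusted p of 0.000311. Because Xist, also X-linked, differed so much between the strains, the X chromosome was looked at as a whole: of its 621 tested genes 7.25% were higher and 8.86% lower in MRL/lpr, and their median log2 fold change was -0.1. The part of the Xist difference in the Il2rg result was not tested.

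The RefSeq promoter windows of 8 members, here the 250 bases before each start, were searched on both strands. The motifs were the core of the interferon-stimulated response element and TTCNNNGAA, the letters of a STAT site. No window held the interferon element, which 2.98% of 32851 promoters of the same length hold. The STAT letters occurred once, as TTCAGGGAA 142 bases before the RefSeq start of Il7r, and are found in 7.02% of promoters. That window, chr15:9529877-9530126, lies wholly inside the annotated Il7r gene. One more motif, CCGGAAG, the core of sites for ETS factors, was added after the sequences were seen. It occurred 17 bases before the start of Il2rg and 104 bases before the first of the 2 listed starts of Il15ra, was absent from the window of the other Il15ra start, and is found in 6.91% of promoters. A match is a run of letters and not a measured binding site. The windows of Il2rg and Il15ra, higher in MRL/lpr, are shown with that motif in capitals. Those of Il4ra and Il21r are shown because they are neighbours on chromosome 7 whose RNA differed in opposite directions, and have no capitals because they hold none of the motifs. Each is the part of the window of 250 bases that lies before the annotated gene, 5′ to 3′ on the gene's strand, from RefSeq on GRCm38.p6. Il2rg is chrX:101268256-101268505 on the minus strand, Il15ra is chr2:11705043-11705289, Il4ra is chr7:125552021-125552119 and Il21r is chr7:125603179-125603428, the last 3 on the plus strand.
Il2rg: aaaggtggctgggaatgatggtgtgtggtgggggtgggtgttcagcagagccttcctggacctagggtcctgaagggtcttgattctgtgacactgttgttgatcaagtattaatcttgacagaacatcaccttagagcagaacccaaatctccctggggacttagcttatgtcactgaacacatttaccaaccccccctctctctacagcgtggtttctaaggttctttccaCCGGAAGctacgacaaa
Il15ra: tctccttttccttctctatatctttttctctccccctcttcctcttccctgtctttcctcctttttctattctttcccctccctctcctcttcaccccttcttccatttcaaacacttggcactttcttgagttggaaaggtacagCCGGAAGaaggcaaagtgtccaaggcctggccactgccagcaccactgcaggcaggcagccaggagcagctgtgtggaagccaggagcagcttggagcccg
Il4ra: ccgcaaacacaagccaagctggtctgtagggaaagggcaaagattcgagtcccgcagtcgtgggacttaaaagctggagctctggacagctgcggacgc
Il21r: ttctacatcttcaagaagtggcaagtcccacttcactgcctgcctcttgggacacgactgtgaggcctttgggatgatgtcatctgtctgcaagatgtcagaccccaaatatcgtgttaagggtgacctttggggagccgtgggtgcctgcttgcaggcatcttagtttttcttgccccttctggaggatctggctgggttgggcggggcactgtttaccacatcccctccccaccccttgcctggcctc

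Il2rb is the signalling chain that IL-2 and IL-15 share, on chromosome 15, 78479256 to 78495271 on the minus strand. It had 391, 297 and 291 counts in MRL/lpr and 103, 59 and 106 in MRL/mpj. The groups were far apart, since the lowest MRL/lpr library held 291 counts and the highest MRL/mpj library 106. The mean level was 7.20 CPM ± 1.02 (SD, n = 3) against 1.74 ± 0.49, and Il2rb rose 4.13-fold (log2 fold change 2.05, SE 0.26, 95% interval 1.45 to 2.64, edgeR adjusted p 0.000525). It had the highest fold change of the members, and per length only Il2ra was expressed at a lower level.

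Most T cell markers, and 5 of 10 markers of NK and innate lymphoid cells, were higher in the same libraries. T cells and NK cells carry Il2rb, and in bulk RNA more cells of a type and more RNA per cell cannot be told apart. The 10 T cell markers summed to 25.5 to 32.9 CPM in MRL/lpr and 8.49 to 8.93 in MRL/mpj, and 8 of the 10 were higher by edgeR. The 10 markers of NK and innate lymphoid cells summed to 20.2 to 25.4 CPM against 10.04 to 11.03, with 5 of 10 higher. By the same rule 11.1% of all genes tested were higher. The 5 were Gzma, Gzmb, Prf1, Nkg7 and Eomes. Of the 5 not called, the NK receptor genes Klrb1c (log2 fold change -2.74, SE 1.4) and Klrd1 (-0.38, SE 0.25) had estimates below 0. Those of Ncr1, Tbx21 and Gata3 were above 0. Cd3e, which encodes a part of the T cell receptor complex, had 103, 92 and 120 counts in MRL/lpr and 2, 0 and 9 in MRL/mpj. Ncr1, a defining receptor of NK cells, had 27, 25 and 0 counts against 7, 21 and 0. None of the T cell and NK markers was at 0 in all 6 libraries. The 8 B cell markers summed to 9.45 to 10.7 CPM against 8.95 to 10.2, and Cr2 was at 0 throughout. Of the 5 B cell markers tested, edgeR called none (2 at an unadjusted p under 0.05), and DESeq2 and limma called 1 each. The part of lymphocytes in the Il2rb difference was not tested. CD11b selection is meant to remove lymphocytes that lack CD11b, and how completely it did so was not tested.

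**Figure D3:**
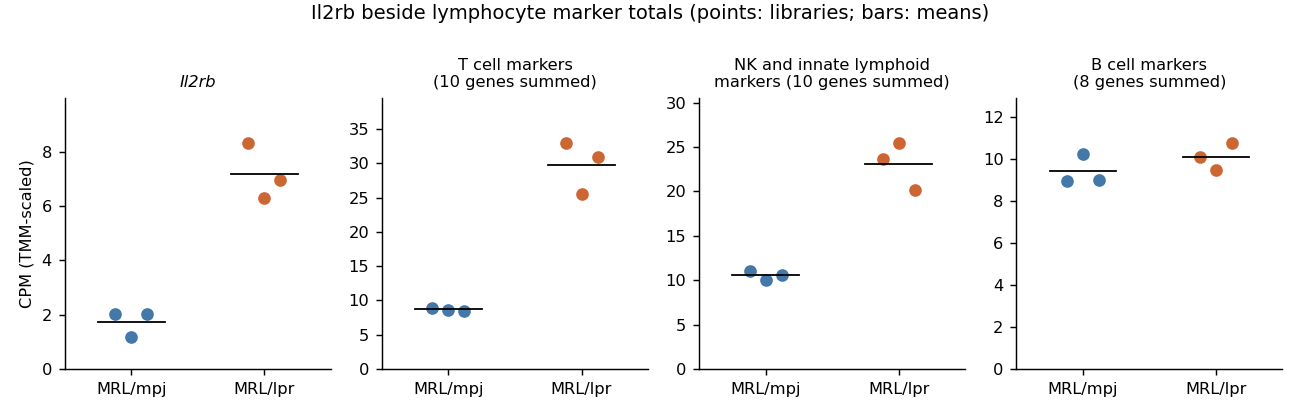
CPM scaled by TMM of Il2rb and the summed CPM of the T cell, NK and innate lymphoid, and B cell marker lists; points are libraries, lines are means of 3 libraries, and each axis starts at 0. Il2rb and the T cell and NK totals separate the strains, while the B cell totals overlap.

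Il2ra encodes the alpha chain that makes the IL-2 receptor a high-affinity one, and is best known from activated and regulatory T cells. It lies on chromosome 2, 11642807 to 11693193 on the plus strand. Its counts were 27, 4 and 23 in MRL/lpr and 4, 8 and 33 in MRL/mpj. A strain difference was not detectable at this depth, with a log2 fold change of 0.46 (SE 1.001, 95% interval -1.79 to 2.72) and an edgeR adjusted p of 0.807. The 4 regulatory T cell markers, Foxp3 among them, summed to 10.3 to 19.0 CPM in MRL/lpr and 12.3 to 15.5 in MRL/mpj. Of the 4, edgeR called 1 higher, Ctla4, an inhibitory receptor of T cells, which had 147, 96 and 85 counts in MRL/lpr and 0, 8 and 17 in MRL/mpj (log2 fold change 3.86, SE 0.82, adjusted p 0.0109). Foxp3 itself had 14, 36 and 44 counts against 27, 10 and 31.

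Il15 and its private chain Il15ra differed in outcome. IL-15 is made by myeloid cells and presented by Il15ra to neighbours that carry Il2rb and Il2rg. Il15, on chromosome 8, 82331632 to 82403222 on the minus strand, had 311, 276 and 249 counts in MRL/lpr and 277, 358 and 271 in MRL/mpj. The strains overlapped, and the log2 fold change was 0.05 (SE 0.19, 95% interval -0.37 to 0.48, edgeR adjusted p 0.886), an interval that leaves room for a modest change in either direction. Il15ra, on chromosome 2, 11705290 to 11734317 on the plus strand, had 686, 657 and 462 counts in MRL/lpr and 346, 394 and 554 in MRL/mpj. After scaling these were 14.6, 14.0 and 11.1 CPM against 6.73, 7.88 and 10.6, so the lowest MRL/lpr library lay just above the highest MRL/mpj library, and in raw counts it lay below it. The log2 fold change was 0.65 (SE 0.20, 95% interval 0.21 to 1.09) with an edgeR adjusted p of 0.0442. That call was lost under 8 of 14 alternatives. It was lost without MRL/lpr replicate 1 (edgeR adjusted p 0.131), without MRL/lpr replicate 2 (0.123), without MRL/mpj replicate 1 (0.148) and without MRL/mpj replicate 2 (0.14).

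Il15ra starts 12096 bases after the end of Il2ra on the same strand, with no annotated gene between them. In MRL/lpr these neighbours had mean levels per length of 2.53 and 0.0600 FPKM. Il15ra passed the test and Il2ra did not, and the difference between their fold changes was not tested.

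Il4ra, the chain that binds IL-4, was among the most abundant of the family and was higher in MRL/lpr. It lies on chromosome 7, 125552120 to 125579474 on the plus strand. It had 9890, 10298 and 11236 counts in MRL/lpr and 6122, 6237 and 6556 in MRL/mpj, with no overlap. The mean level was 233 CPM ± 31.6 (SD, n = 3) against 123 ± 3.67, a log2 fold change of 0.92 (SE 0.10, 95% interval 0.70 to 1.13) and an edgeR adjusted p of 0.000146. MRL/lpr replicate 3 was the highest, and without it the log2 fold change was 0.80. An antisense gene that overlaps its exons, Gm44876, had at most 12 counts in any library.

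Il21r, which pairs with the gamma chain to bind IL-21, lies 23954 bases beyond Il4ra on the same strand, at 125603429 to 125633570, with no annotated gene between. It went the other way. Its counts were 3626, 3150 and 3527 in MRL/lpr and 5721, 5415 and 5921 in MRL/mpj, again with no overlap. The mean level was 76.1 CPM ± 8.78 (SD, n = 3) against 111 ± 2.75, and the log2 fold change was -0.55 (SE 0.09, 95% interval -0.75 to -0.34, edgeR adjusted p 0.00259). Within a library, the ratio of Il4ra to Il21r in FPKM was 1.51, 1.81 and 1.76 in MRL/lpr and 0.593, 0.637 and 0.613 in MRL/mpj. Il4ra thus exceeded Il21r in every MRL/lpr library and was below it in every MRL/mpj library.

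Il13ra1, the partner of Il4ra in the receptor that IL-4 and IL-13 use without the gamma chain, did not pass the test. It is X-linked, at 36112110 to 36171259 on the plus strand. It had 7077, 6545 and 6345 counts in MRL/lpr and 7378, 7261 and 7769 in MRL/mpj, or 147 CPM ± 7.03 (SD, n = 3) against 146 ± 2.96. The log2 fold change was 0.01 (SE 0.07), and its 95% interval of -0.14 to 0.16 was narrow (edgeR adjusted p 0.939). Under scaling by library size only, it was -0.11. That scaling moved the median of all genes to -0.13, so relative to that median it was near 0 in both.

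Il7r binds IL-7 with the gamma chain and TSLP with Crlf2. It lies on chromosome 15, 9505788 to 9530176 on the minus strand. Counts were 3365, 3148 and 2527 in MRL/lpr and 4437, 4357 and 4726 in MRL/mpj, without overlap. The mean level was 66.3 CPM ± 5.58 (SD, n = 3) against 88.1 ± 2.39, a log2 fold change of -0.41 (SE 0.08, 95% interval -0.60 to -0.22) with an edgeR adjusted p of 0.00705.

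Crlf2, the TSLP-specific chain, rose while its partner fell. It lies on chromosome 5, 109554709 to 109558993 on the minus strand. Counts were 719, 556 and 668 in MRL/lpr and 235, 235 and 215 in MRL/mpj, so the lowest MRL/lpr library was well above all MRL/mpj libraries. The mean level was 14.4 CPM ± 2.24 (SD, n = 3) against 4.47 ± 0.30, and Crlf2 rose 3.21-fold (log2 fold change 1.68, SE 0.17, 95% interval 1.31 to 2.06, edgeR adjusted p 0.000107).

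Levels were compared between genes only per length, in the FPKM the authors deposited. In MRL/mpj the order from high to low was Il13ra1 (36.6 ± 0.75, mean and SD of 3 libraries), Il21r (31.1 ± 0.76), Il4ra (19.1 ± 0.58), Il7r (17.6 ± 0.48), Il2rg (4.76 ± 0.26), Crlf2 (2.77 ± 0.18), Il15 (2.42 ± 0.44), Il15ra (1.74 ± 0.42), Il2rb (0.373 ± 0.107) and Il2ra (0.0433 ± 0.0493). The ranges of Crlf2 and Il15 overlapped, as did those of Il15 and Il15ra, and the other neighbours did not overlap. In MRL/lpr, Il13ra1 (33.9 ± 1.37) and Il4ra (33.1 ± 3.39) overlapped at the top, followed by Il21r (19.6 ± 1.80) and Il7r (12.2 ± 1.37). Crlf2 (8.19 ± 1.14) had moved up beside Il2rg (8.16 ± 0.44), whose ranges overlapped. Below them Il15ra (2.53 ± 0.44) and Il15 (2.31 ± 0.19) overlapped, and Il2rb (1.44 ± 0.22) and Il2ra (0.0600 ± 0.0436) came last. By mean FPKM over the 6 libraries, Il13ra1, Il4ra and Il21r were above at least 92.5% of the genes tested, Il2rg above 70.8%, Il2rb above 34.2% and Il2ra above 2.0%.

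**Figure D4:**
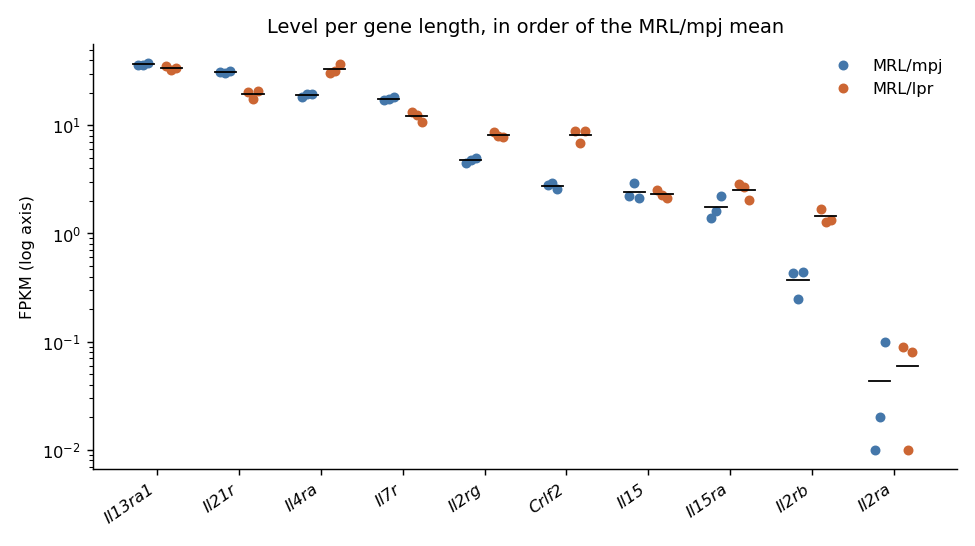
Deposited FPKM of each gene on a log axis, in order of the MRL/mpj mean; points are libraries and lines are means of 3 libraries. Il4ra, Crlf2 and Il2rb sit higher in MRL/lpr and Il21r and Il7r lower, and Il2ra lies far below the rest in both strains.

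How the chains stood to each other was then taken as ratios of FPKM within each library, which do not depend on the scaling between libraries. The 7 pairs were chosen after the values were seen. With 3 libraries against 3 no two-sided exact permutation test can give a p below 0.1. The ratio of Il4ra to Il2rg was 3.53, 3.98 and 4.71 in MRL/lpr and 4.12, 4.03 and 3.91 in MRL/mpj, so these partners kept overlapping ratios (exact permutation p 0.9). The 6 other ratios did not overlap between the strains, each with the smallest p possible of 0.1 (0.117 after adjustment over the 7). For Il4ra to Il21r, Il21r to Il2rg, Il7r to Il2rg and Crlf2 to Il7r this outcome was fixed in advance. They join a chain higher in MRL/lpr without overlap to a chain lower without overlap, so their p adds nothing to the single genes. How often the ratios of other gene pairs overlap was not tested. Il21r to Il2rg was 2.40 ± 0.24 (SD, n = 3) in MRL/lpr and 6.55 ± 0.35 in MRL/mpj, and Il7r to Il2rg was 1.49 ± 0.11 against 3.70 ± 0.12. Il2rb to Il2rg was 0.175 ± 0.018 against 0.0787 ± 0.0234. Il4ra to Il13ra1, the chains of the receptor without the gamma chain, was 0.977 ± 0.116 against 0.522 ± 0.009. Crlf2 to Il7r, the chains of the TSLP receptor, were at 0.679 ± 0.137 against 0.158 ± 0.014, the widest gap of the 7 (mean log2 difference 2.09).

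The genes nearest in pattern were found by the root mean square distance of centred log2 CPM over the 6 libraries, among 14921 genes. For Il2rg they were H2-Q4 (distance 0.04), a class I histocompatibility gene, Gm38220 (0.042) and Stard9 (0.043). For Il4ra they included Vars (0.06) and Nckap5l (0.067). For Il2rb they were Gm15753 (0.16), Bub1b (0.168), a mitotic checkpoint gene, and Ly6i (0.169), at distances well above those of the more abundant members. For Il15 they were Atpaf1 (0.04), Snrpb2 (0.051) and Gm7160 (0.062), none of which passed the test. These distances are descriptions over 6 libraries of 2 strains.

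The other genes of these pathways were taken from a list of 44, of which 35 were tested. By edgeR, 15 were higher in MRL/lpr, 2 lower and 18 not called, with a median log2 fold change of 0.28. Among all genes tested 11.1% were higher and 9.06% lower, with a median of -0.01. The counts by role below stand beside the same shares. With scaling by library size only, which shifts all genes as given above, 11 were higher and 4 lower, and with limma on FPKM 10 were higher and 4 lower. The genes called lower by these alone were Pim2 and Ptpn6.

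Cytokine ligands were close to undetected. Il2 and Il9 had 0 counts in all 6 libraries. Il4 had 13, 13 and 14 counts in MRL/lpr and 13, 14 and 21 in MRL/mpj. Il7 had 31, 0 and 19 against 0, 31 and 0, Il21 had 12 counts in MRL/lpr replicate 2 and none elsewhere, and Il13 had 4, 0 and 7 against 0 in each MRL/mpj library. Tslp, the ligand of Crlf2 with Il7r, had 24, 15 and 15 counts in MRL/lpr and 96, 38 and 25 in MRL/mpj, a log2 fold change of -1.38 (SE 0.61) that did not pass (edgeR adjusted p 0.157). MRL/mpj replicate 1 held the most Tslp counts, and without it the log2 fold change was -0.64, while it was -1.73 without MRL/mpj replicate 3. Of the 3 ligands tested (Il4, Il7 and Tslp), none was called or had an unadjusted p under 0.05 by edgeR, and DESeq2 and limma called none, although DESeq2 gave 1 an unadjusted p under 0.05. Of the other receptor chains, Il9r had 19 counts at most in any library and Il13ra2 had 0 in all, so neither was tested.

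The Janus kinases that sit on these chains were mostly higher. Jak3, the kinase bound by the gamma chain itself, was at 195, 208 and 215 CPM in MRL/lpr and 101, 98.2 and 98.5 in MRL/mpj, and rose 2.07-fold (log2 fold change 1.05, SE 0.07, edgeR adjusted p 6.87e-06). The MRL/lpr values did not overlap with the others, and the call held in all 14 alternatives. Jak1, bound by the private chains, was 0.53 higher on the log2 scale (SE 0.06), and Tyk2, bound by Il13ra1, was 0.28 higher (SE 0.07). Jak2, used by the TSLP receptor, did not pass (log2 fold change 0.09, edgeR adjusted p 0.586). The Tyk2 call was lost under 5 of 14 alternatives, among them leaving out MRL/mpj replicate 1 (edgeR adjusted p 0.054) or MRL/mpj replicate 2 (0.0782).

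Among STATs and adaptors 4 of 6 were higher. Stat3, which IL-21 activates, was 0.30 higher on the log2 scale (SE 0.06), but not past the threshold with scaling by library size only or with limma (adjusted p 0.0787 and 0.0831). Stat6, which IL-4 and IL-13 activate, was 0.24 higher (SE 0.07), a call lost under 9 of 14 alternatives. Without MRL/lpr replicate 1 or 2 the edgeR adjusted p of Stat6 was 0.0513 and 0.0996, and without MRL/mpj replicate 1, 2 or 3 it was 0.157, 0.0918 and 0.0778. The adaptors Irs2 (0.49) and Shc1 (0.38) were also higher. The 2 genes of STAT5, which IL-2, IL-7, IL-15 and TSLP activate, did not pass the test, Stat5a at 0.31 (edgeR adjusted p 0.0939) and Stat5b at 0.09 (0.553). Of the 6 inhibitors 2 were higher, Cish (log2 fold change 0.94, SE 0.11), a STAT5-induced inhibitor of cytokine receptors, and Socs3 (0.38, SE 0.06), whose call was lost with limma (adjusted p 0.0595).

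Among 7 STAT5 target genes 3 were higher and none lower. Pim1, a survival kinase, was at 212, 193 and 173 CPM in MRL/lpr and 63.6, 51.3 and 48.2 in MRL/mpj. These did not overlap, and Pim1 rose 3.55-fold (log2 fold change 1.83, SE 0.12, edgeR adjusted p 7.81e-06). The anti-apoptotic gene Mcl1 (0.71) and the cyclin gene Ccnd2 (0.45) were higher as well. The call of Ccnd2 was lost under 5 of 14 alternatives, among them leaving out MRL/lpr replicate 1 (edgeR adjusted p 0.0524), MRL/mpj replicate 1 (0.0618) or MRL/mpj replicate 2 (0.0534). Bcl2, Bcl2l1, Myc and Pim2 did not pass. Each of these targets also answers to other signals.

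The macrophage genes known to follow IL-4 and STAT6 did not move in one direction. Of 12 listed, 9 were tested, 3 were higher and 2 lower, with a median log2 fold change of -0.05. The chemokine gene Ccl24 was at 7.13, 10.1 and 11.4 CPM in MRL/lpr and 3.87, 1.70 and 2.96 in MRL/mpj (log2 fold change 1.74, SE 0.31, edgeR adjusted p 0.00334), and the lectin gene Mgl2 was 1.38 higher (SE 0.24). Klf4, a transcription factor that also answers to inflammatory and stress signals, was 0.87 higher (SE 0.09). Chil3, a chitinase-like gene often used as a mark of IL-4 activation, was at 19.9, 13.7 and 14.6 CPM in MRL/lpr and 48.6, 49.9 and 47.1 in MRL/mpj. It fell in MRL/lpr (log2 fold change -1.59, SE 0.14, edgeR adjusted p 5.09e-05), with no overlap. Mrc1, the mannose receptor gene, had a log2 fold change of -0.39, near the threshold, and its call was lost under 7 of 14 alternatives. These include each library left out in turn, with edgeR adjusted p of 0.0666, 0.0614 and 0.0766 without MRL/lpr replicate 1, 2 and 3 and of 0.107, 0.159 and 0.0717 without MRL/mpj replicate 1, 2 and 3. Arg1, at 29 counts or fewer per library, did not pass (log2 fold change 0.998, SE 0.75), and Retnla had 0 counts in all libraries.

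**Figure D5:**
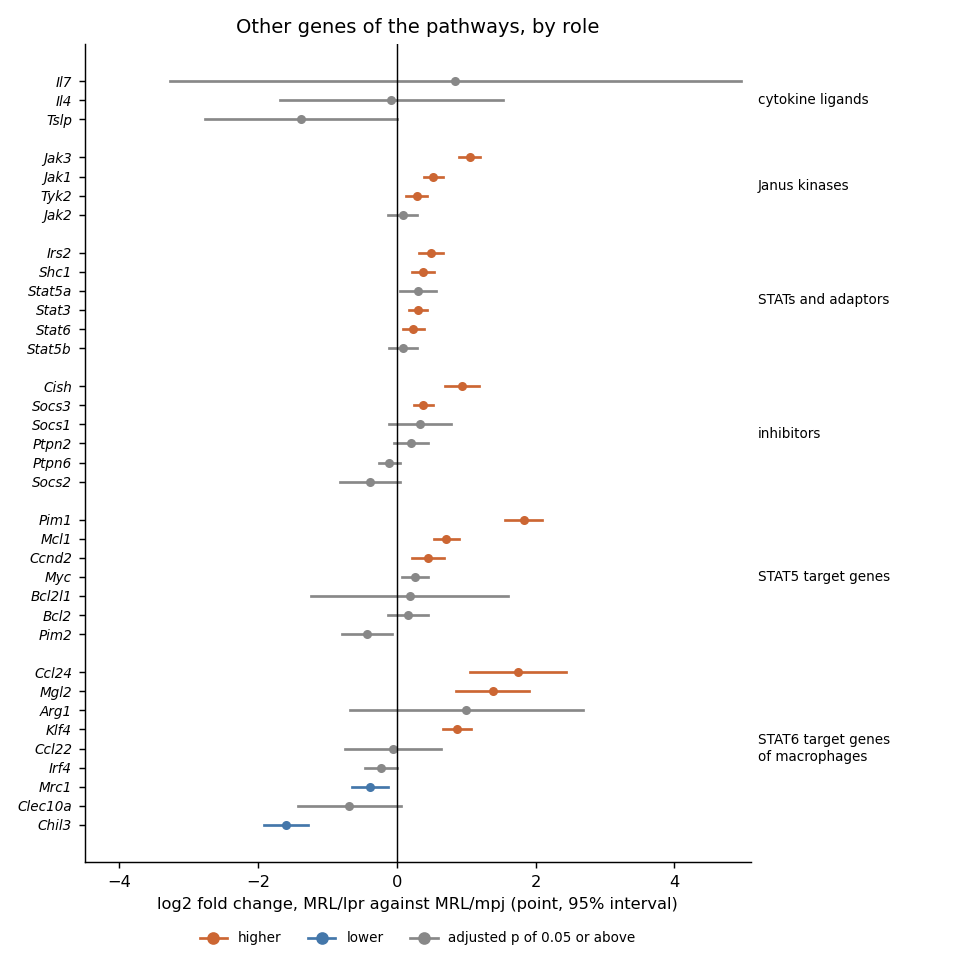
Log2 fold change, MRL/lpr against MRL/mpj, of the 35 tested pathway genes that are not members, grouped by role, with points at the edgeR estimate and lines over the 95% interval. Jak3, Cish, Pim1, Mcl1, Ccl24, Mgl2 and Klf4 lie clearly above 0, Chil3 and Mrc1 below, and the ligand intervals are wide.

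Other myeloid cells can carry several of these receptors too. For the counts of markers called here and in the next paragraph, 11.1% of all genes tested were higher and 9.06% lower. Monocyte markers summed to 564 to 654 CPM in MRL/lpr and 525 to 553 in MRL/mpj (3 of 7 higher), neutrophil markers to 563 to 642 against 436 to 498 (3 of 6 higher), and dendritic cell markers to 35.5 to 39.5 against 25.8 to 30.5 (1 of 6 higher). Border macrophage markers, among which Mrc1 is also listed, summed to 51.4 to 53.1 against 55.6 to 64.4 (2 of 7 lower). Mast cell and basophil markers, cells that respond to TSLP and IL-4, summed to 2.53 to 3.80 against 1.46 to 3.29. Of these 6 markers 3 were tested and 1 was higher. It was Tpsb2, with 15, 17 and 12 counts in MRL/lpr and 0 in each MRL/mpj library. Plasma cell markers summed to 176 to 197 against 148 to 157 (2 of 6 higher), and among them Jchain, the joining chain of secreted antibodies, had 647, 765 and 696 counts in MRL/lpr and 74, 72 and 42 in MRL/mpj.

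Markers of cells outside the immune system also differed. Choroid plexus markers summed to 321 to 331 CPM in MRL/lpr and 968 to 1053 in MRL/mpj (5 of 5 lower), and neuronal markers to 7.89 to 9.43 against 21.8 to 23.2 (2 of 5 lower). Oligodendrocyte markers summed to 77.5 to 90.9 against 91.4 to 115 (1 of 5 lower), endothelial markers to 1356 to 1545 against 1208 to 1242 (2 of 5 higher), and astrocyte markers to 57.0 to 63.2 against 51.6 to 61.4. The part of any of these cells in the member differences was not tested.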

How the data were processed

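RNA-seq of CD11b-selected brain cells was used, 3 MRL/lpr and 3 MRL/mpj libraries. According to the submitters' processing notes and the methods, the authors trimmed reads with cutadapt 1.9.3 and aligned them with HISAT2 2.0.4 to GRCm38, and the notes also name Cufflinks and Cuffdiff 2.2.1. The labels describe a stranded, rRNA-depleted total RNA kit, while the methods describe purified mRNA. The authors deposited raw counts per gene, and FPKM per gene and library (scaled by gene length and depth). The counting tool and annotation are not given in the sources used here. Strand use in counting is likewise unknown, so reads of overlapping genes may not be separated.

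Gene symbols and positions were those of GENCODE M21 (GRCm38), found for 55141 of 55401 identifiers, and promoters from RefSeq (8 of 10 members matched). Counts were tested with edgeR 4.0.16 in R 4.3.3: filterByExpr (minimum count 10, minimum total 15), TMM, robust quasi-likelihood test, no covariates, and Benjamini-Hochberg adjustment over 19554 genes. The common biological coefficient of variation was 0.26. Libraries held 45481609 to 49846634 counts. CPM were scaled by TMM. Log2 FPKM with a pseudocount of 0.1 entered limma 3.58.1 as an alternative, on genes with an FPKM of at least 0.1 in 3 or more libraries, and the deposited FPKM tracked the counts (correlation of library deviations at least 0.9999). The other alternatives were DESeq2 1.42.0, other scalings and filters, dispersions that are not robust, a replicate block, counts divided by 4, and each library left out. The steps were also run on simulated counts. Their spread between libraries was set below the common value given above, and only well-counted genes were changed. That run says little about genes with few counts.

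All members are named, with pathway genes by role where they passed the test with a log2 fold change of 1 or more in size or act directly with a member, and others by counts with examples. Some genes that the rule covers are not reported here. The members, lists, tests and motifs were chosen with earlier results of these data known. The ETS motif and the 7 chain ratios were added after the values were seen.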

Additional observations from a re-analysis of the deposited data

How the results depend on the processing

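Il2rg, Il2rb, Il21r, Il4ra, Il7r and Crlf2 kept their direction and their call under all 14 alternatives, with log2 fold changes of 0.77 to 0.93, 1.72 to 2.17, -0.67 to -0.46, 0.78 to 0.99, -0.53 to -0.34 and 1.52 to 1.81. Il15ra stayed positive (0.51 to 0.85) and lost its call under 8 of the 14, with adjusted p from 0.0197 to 0.148, so that 4 or 5 members were higher. Deviations of same-numbered libraries over all genes correlated at -0.0409, -0.0202 and -0.0325, and those of differently numbered libraries at 0.00246 to 0.0328. No pairing by replicate number was seen in these values, which cannot show how the libraries were processed. With the replicate block, Il15ra had an adjusted p of 0.0997, 13 pathway genes were higher and 1 was lower. The pathway genes lower numbered 2 in the main analysis, 4 with scaling by library size only, 4 with limma on FPKM, and 1 whichever single library was left out (lowest 1, highest 1), where Chil3 was the gene left. Values near 0 changed sign. With scaling by library size only the log2 fold change was -0.068 for Il15, -0.113 for Il13ra1, -0.034 for Jak2 and -0.033 for Stat5b, and with limma -0.054, -0.111, -0.04 and -0.037, where all genes also shifted. Without single libraries Il15 ran from -0.031 to 0.211, Il13ra1 from -0.008 to 0.049, Stat5b from -0.002 to 0.136 and Il4 from -0.209 to 0.148. The causes of the other changes were not tested. Il2ra, at the lowest counts, ran from 0.02 to 1.74 and was not tested with counts divided by 4 or with limma. The order of levels kept all 20 places with CPM per kb, 16 when MRL/lpr replicate 1 was left out and 18 when replicate 3 was.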
